A study of Mus musculus with 6 samples.

Results

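Globin and erythroid transcripts were followed in the livers of 12-week-old male mice by RNA-seq. The 6 genes are the adult alpha globin genes Hba-a1 and Hba-a2, the adult beta globin genes Hbb-bs and Hbb-bt, Alas2 and Slc4a1, chosen by name as a measure of the blood in each liver, out of 37991 gene IDs in the count table. The libraries came from 3 C57BL/6J wild-type animals (WT) and 3 B6.Zpbp2-/- animals (Zpbp2 KO), which lack zona pellucida binding protein 2, a sperm protein, with 1 library per liver. The labels name no treatment, and what the allele removes was not given in the sources used here.

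Hemoglobin is built from alpha and beta globin chains, each carrying heme, and it fills the red blood cell. Mature mouse red cells have no nucleus, but the youngest of them, reticulocytes, still carry globin mRNA. Adult liver makes no red cells in health, whereas fetal liver is the main site of their production. Alas2 encodes the erythroid form of 5-aminolevulinate synthase, which starts heme synthesis, while Alas1 encodes the form used by hepatocytes and most other cells. Slc4a1 encodes band 3, the anion exchanger of the red cell membrane.

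Both globin gene pairs consist of near copies, which matters for how reads are shared between them. In the GENCODE M21 transcripts, Hba-a1 and Hba-a2 (chromosome 11) have coding sequences of 429 bases that differ at 1 base, the third of codon 127 (C381T, counted from the A of the start codon in Hba-a1). Hbb-bs and Hbb-bt (chromosome 7) have coding sequences of 444 bases that also differ at 1 base, the third of codon 139 (C417T). The coding stretches around these differences are shown because they hold the only bases of the coding part that tell the copies apart, which are in capitals. The alpha stretch spans coding bases 346 to 405 and the beta stretch 372 to 431.
Hba-a1: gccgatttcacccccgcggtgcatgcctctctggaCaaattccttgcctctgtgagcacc
Hba-a2: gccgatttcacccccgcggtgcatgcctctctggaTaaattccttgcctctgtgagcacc
Hbb-bs: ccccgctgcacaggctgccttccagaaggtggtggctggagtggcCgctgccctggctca
Hbb-bt: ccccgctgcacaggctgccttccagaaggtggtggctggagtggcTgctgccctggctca

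Over the whole spliced transcripts, 339 of the 455 windows of 100 bases in Hba-a2 (74.5%) and 339 of the 600 in Hba-a1 (56.5%) occur in the other copy, which leaves 116 and 261 windows found in that copy and not in the other. For the beta genes, 331 windows are shared, 62.6% of those of Hbb-bs and 54.8% of those of Hbb-bt. No window is shared between alpha and beta (0 windows). A read of 100 bases from a shared window cannot be placed by its own sequence, and how the counting treated such reads was not given in the sources used here. The levels of single copies, and the ratios between copies, are therefore less certain than the alpha and beta sums. If shared reads were left out of the counts, the sums would be too low as well. The extent could then differ between alpha and beta, which was not tested.

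Upstream sequence was compared because the alpha and beta genes, on different chromosomes, had nearly the same pattern over livers. Any link between upstream sequence and that pattern was not tested. The stretches are from RefSeq on GRCm38.p6 and end at the base before the gene's start, on the gene's strand. They cover chr11:32283522-32283671 (+) for Hba-a1, chr7:103827929-103828078 (-) for Hbb-bs, chr7:103813924-103814073 (-) for Hbb-bt and chrX:150547167-150547416 (+) for Alas2. Capitals mark the letters CCAAT and CACCC on either strand, and AGATAA on either strand. The promoters of Hba-a1 and Hba-a2 share an unbroken run of 247 of 250 bases, so the second is not shown. Of the 6 genes, 5 had an entry in the promoter table, and Slc4a1 is named only.
Hba-a1: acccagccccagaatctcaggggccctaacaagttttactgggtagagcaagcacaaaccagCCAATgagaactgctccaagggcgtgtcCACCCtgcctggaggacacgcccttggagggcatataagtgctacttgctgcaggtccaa
Hbb-bs: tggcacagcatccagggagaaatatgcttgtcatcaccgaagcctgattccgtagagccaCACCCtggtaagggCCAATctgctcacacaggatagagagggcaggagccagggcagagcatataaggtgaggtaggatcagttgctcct
Hbb-bt: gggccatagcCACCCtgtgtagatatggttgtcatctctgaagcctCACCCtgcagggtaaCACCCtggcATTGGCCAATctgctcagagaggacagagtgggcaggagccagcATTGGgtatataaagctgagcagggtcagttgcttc
Alas2: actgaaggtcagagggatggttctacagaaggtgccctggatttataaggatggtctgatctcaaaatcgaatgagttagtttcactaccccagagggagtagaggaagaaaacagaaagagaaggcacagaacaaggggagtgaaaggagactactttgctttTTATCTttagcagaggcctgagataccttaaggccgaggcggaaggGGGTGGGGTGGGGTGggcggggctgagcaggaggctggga

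The 250 bases before the start of all 4 globin genes held CCAAT and CACCC, the latter being the core of the element that erythroid KLF factors bind. In Hbb-bs CCAAT began at position -76 and CACCC at -90, in Hba-a1 CCAAT began at -88 and the nearer CACCC at -60. Alas2 held no CCAAT, but 3 copies of CACCC on the opposite strand from -40 to -30 and AGATAA, the sequence that GATA factors bind, on the opposite strand at -86. AGATAA was also found at -210 in Hbb-bs, outside the stretch shown, and not in the windows of Hba-a1, Hba-a2 or Hbb-bt. CAGATG was in none of the 5 windows. ATAAA was found in Hbb-bt and Alas2, overlapping AGATAA in the latter, and in Hbb-bt CCAAT matches on opposite strands adjoin without overlap, at -80 and -75. Over all 32851 promoters of that table, 33.8% held CCAAT in these 250 bases, 52.0% CACCC, 9.99% AGATAA, 37.3% ATAAA and 14.4% CAGATG, so CACCC is no rare match. These matches describe letters in the windows and not sites that a factor binds.

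Total counts ran from 37904891 to 52955687 per library, with the smallest in WT replicate 3. The targeted gene Zpbp2 had 4, 13 and 7 counts in the WT libraries and 0 in each Zpbp2 KO library. Summed over 16 genes, hepatocyte markers took 129611 to 146368 CPM, the counts-per-million scale with TMM-scaled library sizes. Zpbp2 KO replicate 2 stood apart, with the lowest sums of Kupffer cell and liver endothelial markers among the 6 livers. In bulk tissue, fewer cells of a type and less RNA per cell cannot be told apart.

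As counted, the 4 globin genes together made up very little of these libraries and varied several-fold between livers of the same genotype. Their summed level in CPM was 24.8, 77.4 and 57.3 for WT replicates 1 to 3, against 157, 177 and 41.7 for Zpbp2 KO replicates 1 to 3. Thus 2 knockout livers lay above all WT livers, and the other, replicate 3, lay between WT replicates 1 and 3. The highest liver exceeded the lowest 3.13-fold among WT animals, 4.25-fold among knockouts and 7.16-fold over all 6. As a share of all counts the globins ran from 0.00252% (95% exact binomial interval 0.00238% to 0.00266%) in WT replicate 1 to 0.0168% (0.0164% to 0.0172%) in Zpbp2 KO replicate 2. The intervals of the 6 livers did not overlap each other, so each liver differed from its neighbours in this order by more than counting error. Such intervals cover counting error only, since amplified copies of one molecule count as separate reads.

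Hbb-bs was the most abundant globin transcript, also per length. It stood at 14.4, 43.6 and 31.5 CPM across WT replicates 1 to 3, and at 97.5, 97.8 and 23.7 CPM in knockout replicates 1 to 3. The groups overlapped through knockout replicate 3. The mean was 29.8 ± 14.7 CPM for WT livers and 73.0 ± 42.7 CPM for knockouts (SD, n = 3), and the log2 fold change of Zpbp2 KO over WT was 1.29 ± 0.545 (SE). Adjusted over 14686 genes by the Benjamini-Hochberg method, the edgeR quasi-likelihood p was 0.798, a value that the other globin genes shared.

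Hbb-bt, the other adult beta gene, was measured at 2.04, 7.06 and 6.13 CPM in the WT livers and at 11.7, 13.3 and 3.28 CPM in the knockout livers. The same 2 knockout livers were highest and WT replicate 1 was lowest, as for Hbb-bs. Its log2 fold change was 0.89 ± 0.560, the smallest of the globin genes.

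Hba-a1 was the more abundant alpha gene, also per length. Its level was 6.46, 20.4 and 14.4 CPM in the WT livers and 35.4, 49.7 and 10.9 CPM in the knockout livers. Its log2 fold change was 1.21 ± 0.549. Hba-a2 stood at 1.91, 6.33 and 5.27 CPM in the WT livers and at 12.5, 16.5 and 3.91 CPM in the knockout livers, with a log2 fold change of 1.29 ± 0.554. With their counts summed, the alpha genes gave 1.23 and the beta genes 1.24.

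All 4 globin genes put the livers in one order, Zpbp2 KO replicate 2, Zpbp2 KO replicate 1, WT replicate 2, WT replicate 3, Zpbp2 KO replicate 3 and WT replicate 1, from highest to lowest. The top of that order is not firm for Hbb-bs: scaled by library totals without TMM, knockout replicate 1 stood at 97.5 CPM and replicate 2 at 92.7 CPM. The ranges were wide beside those of other genes. The highest liver exceeded the lowest 6.81-fold for Hbb-bs, 6.51-fold for Hbb-bt, 7.69-fold for Hba-a1 and 8.67-fold for Hba-a2, against a median of 1.499-fold over the tested genes, of which 1.26%, 1.37%, 0.987% and 0.824% had as wide a range.

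Slc4a1 was at the edge of detection and followed nearly that order. It had 2, 9 and 7 counts across WT replicates 1 to 3, and 13, 13 and 7 in knockout replicates 1 to 3, which is 0.0381, 0.168 and 0.183 CPM and 0.272, 0.285 and 0.134 CPM. WT replicate 1 was again lowest and knockout replicates 1 and 2 were highest, while knockout replicate 3 lay inside the WT range. The gene did not pass the expression filter, so it has no test, and 5 of the 6 genes were tested.

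Alas2 behaved differently from the globins: it was abundant and nearly even across livers. Its level was 129, 149.6 and 168 CPM across WT replicates 1 to 3, and 150.2, 181 and 128 CPM in knockout replicates 1 to 3. The groups overlapped fully, with means of 149 ± 19.8 and 153 ± 26.7 CPM (SD, n = 3) and a log2 fold change of 0.04 ± 0.150 (edgeR quasi-likelihood, Benjamini-Hochberg adjusted p = 0.974). The sign of that fold change turned with transcript length and GC offsets (-0.034), without WT replicate 1 (-0.055) and without Zpbp2 KO replicate 2 (-0.099). The highest liver exceeded the lowest 1.41-fold, and 59.2% of tested genes had as wide a range. Zpbp2 KO replicate 2 was highest for Alas2 as for the globins, but WT replicate 3 came next, ahead of knockout replicate 1.

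**Figure D1:**
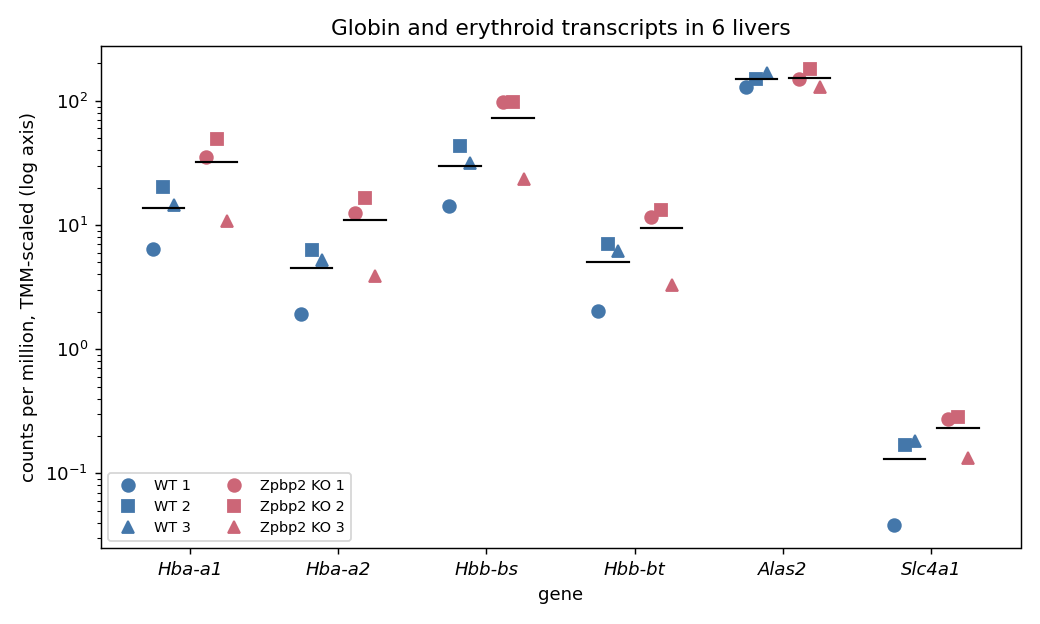
Level of each of the 6 genes in each liver, on the counts-per-million scale with TMM-scaled library sizes on a log axis. Colours give the genotype, symbols the replicate number and black bars the group means. In the globin genes Zpbp2 KO replicate 3 sits among the WT livers while the other knockout livers lie above them, and Alas2 stays between 128 and 181 CPM.

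Per length of spliced transcript, the scale on which genes can be compared, Alas2 as counted was on a par with the most abundant globin. Averaged over the 6 livers, Hbb-bs stood at 81.8 CPM per kilobase (SD 59.1), Alas2 at 74.2 (SD 10.4), Hba-a1 at 32.7 (SD 23.7), Hba-a2 at 14.0 (SD 10.1), Hbb-bt at 10.3 (SD 6.37) and Slc4a1 at 0.0396 (SD 0.0201). These SDs describe the spread over livers and do not compare genes measured in the same livers. Hbb-bs and Alas2 changed order between livers. Hba-a2 as counted lay above Hbb-bt in each of the 6 livers. The values were 3.44 against 2.90 in WT replicate 1 and 29.8 against 18.9 in Zpbp2 KO replicate 2. In WT replicate 1 Alas2 reached 63.3 CPM per kilobase and Hbb-bs 22.9. In Zpbp2 KO replicate 1 the order was the other way round, with 73.7 for Alas2 and 155 for Hbb-bs. Alas2 lay above every globin gene on this scale in all WT livers and in knockout replicate 3. In WT replicate 2 the margin was small, with 73.5 for Alas2 and 69.4 for Hbb-bs. How reads shared between globin copies were counted was not given, and 62.6% of the windows of Hbb-bs are shared. The order of Alas2 and the globins, and of the globins among themselves, is therefore uncertain on this scale. The gene model of Apex2 spans Alas2 on the opposite strand. Apex2 had 354 counts where Alas2 had 8010 (WT replicate 2) and 526 where it had 8267 (Zpbp2 KO replicate 2), and its part in the Alas2 counts was not tested.

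None of the 5 tested genes was called between genotypes (0 of 5), and 0.0136% of all tested genes were called, namely Sik1 and Nr4a1, both lower in Zpbp2 KO. By DESeq2 0 of the 5 were called as well, against 0.517% of all genes. At an unadjusted p below 0.05 edgeR had 2 of the 5, Hbb-bs (0.0442) and Hba-a2 (0.0476), both higher in Zpbp2 KO. Of all tested genes 5.79% were below that p, and 2.86% were so and higher in Zpbp2 KO. The median log2 fold change of the 5 genes was 1.21, beside 0.01 over all tested genes. Above 0 were 5 of 5, and 7764 of all 14686 tested genes. A log2 fold change of at least 1 in the direction of the knockout was seen in 3 of the 5 (Hbb-bs, Hba-a2 and Hba-a1) and in 0.742% of all tested genes. None of the 6 genes separated the genotypes without overlap (0 of 6), which 11.6% of all tested genes did. With the higher levels in Zpbp2 KO, 5.56% of all tested genes did so.

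The size of the globin difference depended on which livers were in the comparison. Leaving out Zpbp2 KO replicate 3 gave log2 fold changes of 1.63 for Hba-a1, 1.69 for Hba-a2, 1.71 for Hbb-bs and 1.30 for Hbb-bt, and the Benjamini-Hochberg adjusted p of Hbb-bs was then 0.278 in the edgeR fit. Leaving out Zpbp2 KO replicate 2 gave 0.75, 0.87, 1.02 and 0.56, and leaving out WT replicate 1 gave 0.87, 0.92, 0.96 and 0.51. The globin genes stayed above 0 and uncalled in each of these fits.

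**Figure D2:**
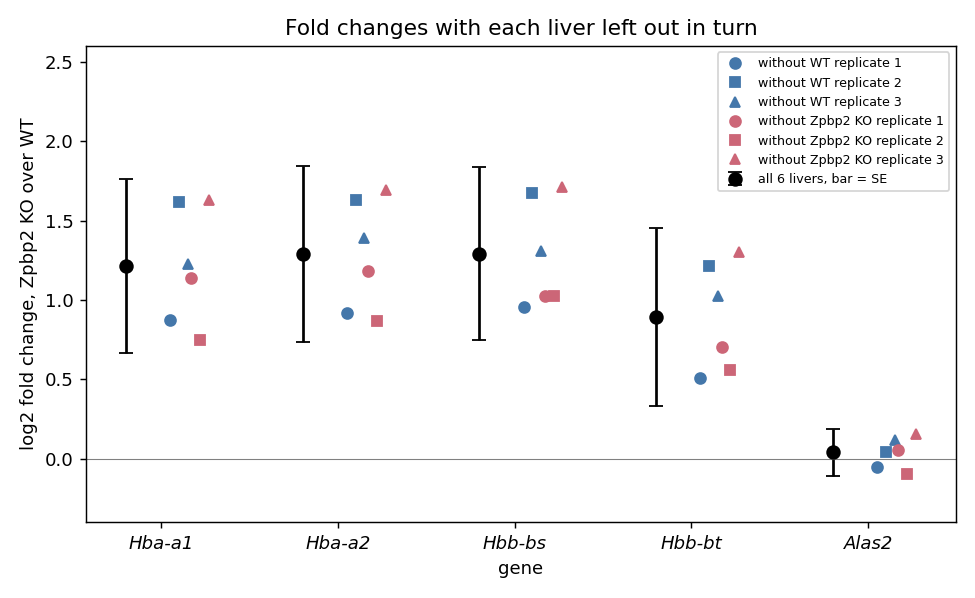
Log2 fold change of Zpbp2 KO over WT for the 5 tested genes. Black points are fits to all 6 livers with their SE, and coloured symbols are fits with the named liver left out. The globin values run from 0.51 (Hbb-bt without WT replicate 1) to 1.71 (Hbb-bs without Zpbp2 KO replicate 3), and those of Alas2 lie on either side of 0.

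The proportions among globin transcripts were far steadier than their levels. The ratio of beta to alpha counts was 1.96, 1.89 and 1.91 across WT replicates 1 to 3, and 2.28, 1.68 and 1.82 in knockout replicates 1 to 3, a 1.36-fold range beside the 7.16-fold range of the summed level. The WT livers agree within sampling noise, as their 95% exact binomial intervals overlap. Knockout replicate 1 (2.17 to 2.39) lay above knockout replicate 2 (1.60 to 1.75) by more than counting error. The genotypes overlapped, with means of 1.92 ± 0.0342 and 1.93 ± 0.314 (SD, n = 3, two-sided exact permutation p = 1.0, adjusted 1.0).

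Within the alpha pair, Hba-a1 to Hba-a2 counts stood at 3.39, 3.22 and 2.74 in WT and 2.82, 3.01 and 2.78 in Zpbp2 KO livers, with overlapping intervals in all 6 (two-sided exact permutation p = 0.4, adjusted 0.667, n = 3). Within the beta pair, Hbb-bs to Hbb-bt was 7.04, 6.17 and 5.13 in WT and 8.34, 7.36 and 7.23 in Zpbp2 KO livers. Here every knockout liver lay above every WT liver, though WT replicate 1 (7.04) lay close to knockout replicate 3 (7.23). Means were 6.11 ± 0.954 and 7.64 ± 0.610, and the two-sided exact permutation p was 0.1, the smallest that 3 livers against 3 allow, or 0.5 adjusted over the 5 ratios examined (n = 3).

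Slc4a1 kept to the globins within its wide counting error. Per 1000 globin counts it had 1.54, 2.17 and 3.20 counts in WT and 1.73, 1.61 and 3.21 in Zpbp2 KO livers, with intervals from 0.186 to 5.57 in WT replicate 1 and from 1.29 to 6.63 in knockout replicate 3 (two-sided exact permutation p = 1.0, adjusted 1.0, n = 3). Alas2 did not keep to them. There were 5.21, 1.93 and 2.94 Alas2 counts per globin count in WT and 0.956, 1.02 and 3.07 in Zpbp2 KO livers, a 5.45-fold range (two-sided exact permutation p = 0.3, adjusted 0.667, n = 3).

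**Figure D3:**
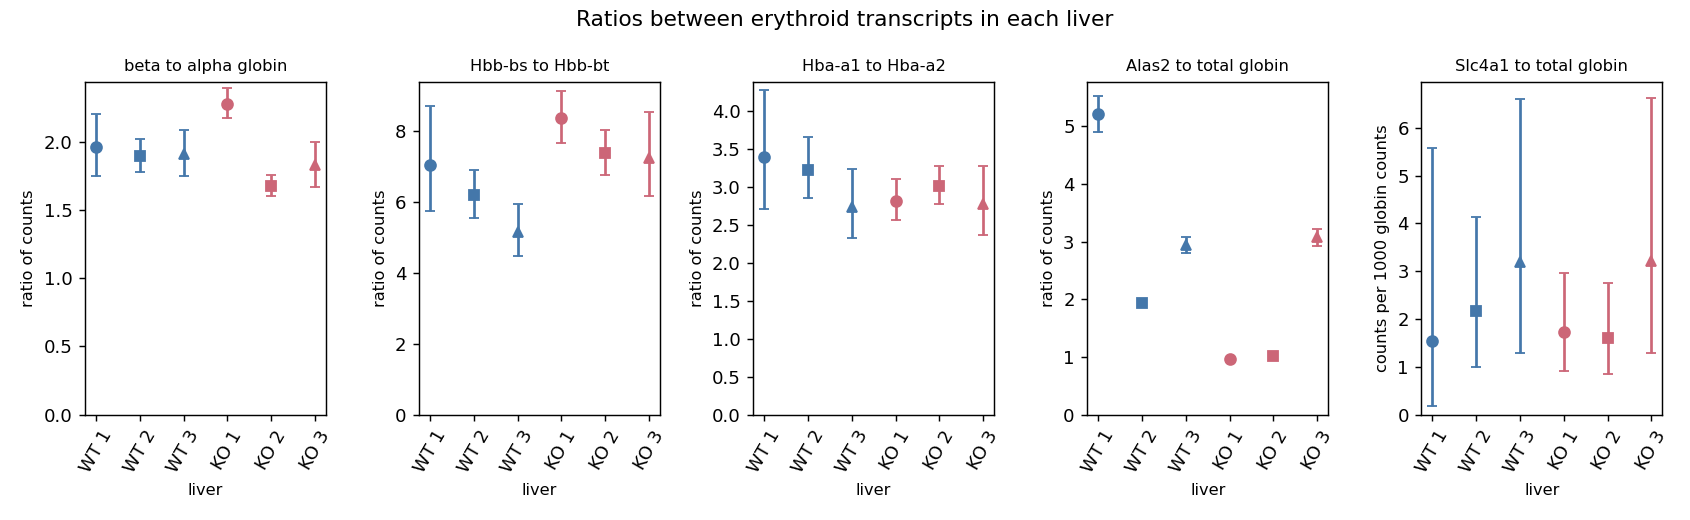
Ratios of counts between the genes in each liver (Slc4a1 per 1000 globin counts), with 95% exact binomial intervals that cover counting error only. Blue is WT and red Zpbp2 KO, and all axes start at 0. Beta to alpha and Hba-a1 to Hba-a2 are nearly level over the livers, while Alas2 to total globin falls from 5.21 in WT replicate 1 to 0.956 in Zpbp2 KO replicate 1.

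Other erythroid genes were read from lists written from textbook knowledge. Of 6 further globin genes in the table, the embryonic genes Hba-x, Hbb-y, Hbb-bh1 and Hbb-bh2 had 0 counts in all livers, which allows up to 3 counts per library, or 0.0560 to 0.0786 CPM. Hbq1a had 1 count and Hbq1b 3 counts over all libraries. Hbb-b1, Hbb-b2 and the alpha globin chaperone gene Ahsp were not analysed here.

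Among 18 genes of the red cell membrane and its skeleton, Rhag, Kel, Add2 and Cldn13 were at 0 in all 6 livers and 8 were tested, of which 0 were called (0 also at an unadjusted p below 0.05). Their median log2 fold change was -0.29, with 2 above 0 and 6 below. The most abundant were Epb41, protein 4.1 of the membrane skeleton, which other cells use too (111 to 128 CPM in WT livers and 91.9 to 127 CPM in knockouts), Slc2a1, the glucose transporter GLUT1 (5.94 to 14.2 CPM over all livers), Xk (6.10 to 9.88 CPM) and the glycophorin gene Gypc (4.73 to 7.65 CPM). Ank1, the red cell ankyrin, picked out after its values were seen, had its highest count, 25, in WT replicate 1, the liver with the fewest globin reads.

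Of 22 late erythroid and reticulocyte genes in the table, 18 were tested and 0 called, with 7 above 0, 11 below, a median of -0.03 and 1 at an unadjusted p below 0.05 (Ube2l6, a ubiquitin-conjugating enzyme induced by interferon). The sum of this list hardly moved, at 1035 to 1099.7 CPM over the 6 livers, and the median member varied 1.38-fold. Among its most abundant members were Fech, ferrochelatase (137 to 191 CPM), Cpox (132 to 165 CPM) and Fam210b (105 to 131 CPM), and Fech and Cpox also serve heme synthesis in hepatocytes.

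Genes of erythroid precursors ranged from single reads to high levels. Gata1, the master regulator of the lineage, had 1 count in WT replicate 2, 1 in Zpbp2 KO replicate 1 and 0 elsewhere, and Gfi1b had 1 count in each of 2 knockout livers. Klf1, the erythroid Krüppel-like factor, was read at 2.52 to 3.72 CPM (104 to 194 counts), lowest in WT replicate 1 and highest in knockout replicate 3, a liver with few globin reads. These genes were picked out after their values were seen. Of 16 genes on this list 13 were tested, 0 were called (0 at an unadjusted p below 0.05), 8 were above 0 and the median was 0.09. The most abundant were Tfr2, transferrin receptor 2, an iron sensor of hepatocytes (436 to 492 CPM), Zfpm1 (65.7 to 94.5 CPM), Ldb1 (30.2 to 43.9 CPM) and Kit (3.99 to 6.65 CPM).

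Among heme enzymes shared with hepatocytes, Alas1 stood apart. It stood at 232, 106 and 174 CPM in WT livers and at 329, 595 and 408 CPM in knockouts, each knockout liver above each WT liver, with a log2 fold change of 1.38 ± 0.303. It was not called by edgeR (Benjamini-Hochberg adjusted p = 0.475) and was called by DESeq2 (adjusted p = 0.000878). Of the 8 genes 0 were called by edgeR and 1 was at an unadjusted p below 0.05, with 6 above 0 and a median of 0.11. Alad, the enzyme after the synthase, was at 115 to 131 CPM in WT livers and 121 to 166 CPM in knockouts. The groups thus overlapped for Alas2, the erythroid form of the synthase, and not for Alas1. Levels without overlap and higher in Zpbp2 KO were seen in 5.56% of all tested genes.

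Genes that bind or clear free hemoglobin and heme held 0 called of 14 tested, 8 above 0 and a median of 0.10, with 1, Hpx, at an unadjusted p below 0.05. Hpx, hemopexin, the plasma carrier of heme, stood at 3241, 3395 and 3343 CPM in WT livers and 4037, 4385 and 3820 CPM in knockouts, without overlap. Its edgeR p was 0.0184 unadjusted and 0.798 after Benjamini-Hochberg adjustment (3 livers a group). Of all tested genes, 5.79% had an unadjusted p below 0.05, and 5.56% were without overlap and higher in Zpbp2 KO. Hp, haptoglobin, the plasma carrier of hemoglobin, was at 1772 to 2010 CPM in WT livers and 1766 to 2479 CPM in knockouts. Its highest levels were in the knockout livers with most globin. That was not particular to Hp, since the hepatocyte markers Apoa1, Apoa2 and Ttr were highest in the same livers. Alb and Apob were not. Lrp1, a receptor for the heme carrier (804 to 1192 CPM over all livers), and Hamp, hepcidin (285 to 664 CPM), overlapped between the groups.

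Platelet and megakaryocyte markers summed to 17.0 to 22.1 CPM in WT livers and 16.3 to 23.8 CPM in knockouts. The lowest sum was that of knockout replicate 2, the liver with most globin. This place depended on single genes, among them Clec1b, which liver endothelium and Kupffer cells also express. Without Clec1b, a choice made after the values were seen, the sums were 12.4, 10.8 and 10.7 CPM for WT replicates 1 to 3, against 14.2, 12.0 and 13.5 CPM for Zpbp2 KO replicates 1 to 3, and knockout replicate 2 was not the lowest. Of 7 tested 0 were called, with 6 above 0, 1 below and a median of 0.26. The most abundant were Clec1b (4.36 to 10.3 CPM), the integrin genes Itgb3 (3.51 to 4.54 CPM) and Itga2b, and Plek (1.60 to 4.37 CPM). Itga2b, the platelet integrin, stood at 3.22, 3.31 and 3.46 CPM in WT livers and 4.47, 4.32 and 3.22 CPM in knockouts. Ppbp, a platelet chemokine picked out after its values were seen, was at 0.229, 0.205 and 0.262 CPM in WT livers and 0.460, 0.526 and 0.249 CPM in knockouts. Both were highest in knockout replicates 1 and 2, as the globins were, and the groups overlapped through knockout replicate 3. Ppbp had only 10 to 24 counts per library. Of the other tested genes on the list, Pf4 and Gp5, also at low counts, were highest in the same livers. Itgb3, Clec1b and Plek were highest in knockout replicate 3 instead. Neutrophil markers were near the limit of detection, with Mpo and Ly6g at 0 in all 6 livers, and their sum was 3.77 to 4.69 CPM in WT livers and 3.49 to 7.32 CPM in knockouts (4 tested, 0 called, 4 above 0, median 0.25). Csf3r (2.02 to 3.35 CPM), Mmp9 (0.373 to 1.19 CPM), S100a9 (0.299 to 1.25 CPM) and S100a8 (0.307 to 0.648 CPM) were the tested genes. Knockout replicate 2 had the lowest neutrophil sum.

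Monocyte markers summed to 10.4 to 16.4 CPM in WT livers and 11.7 to 18.0 CPM in knockouts (7 tested, 0 called, 2 at an unadjusted p below 0.05, 6 above 0, median 0.53), led by Plac8, Treml4, Ccr2 and Ace. T and NK cell markers summed to 6.16 to 9.06 CPM and 8.20 to 11.0 CPM (16 tested, 0 called, 0 at an unadjusted p below 0.05, 14 above 0, median 0.30), led by Cd4, Lck, Ccl5 and Gzma. B cell markers, among them Ighm, Igkc and Cd22, summed to 13.6 to 25.7 CPM and 20.2 to 26.6 CPM (14 tested, 0 called, 1 at an unadjusted p below 0.05, 12 above 0, median 0.45). In T and NK cell and in B cell markers the highest sum was that of knockout replicate 3, whose globin level was low. Over all tested genes, 7764 of 14686 were above 0 and 5.79% had an unadjusted p below 0.05 (edgeR). The part that residual blood takes in any of these lists was not tested.

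Markers of sinusoidal cells diverged between the livers with most globin. Kupffer cell markers, among them Clec4f, Cd5l, Csf1r and Fcna, summed to 533, 424 and 377 CPM across WT replicates 1 to 3, and to 620, 213 and 650 CPM in knockout replicates 1 to 3. Endothelial markers, among them Ptprb, Dnase1l3, Stab2 and Stab1, summed to 604, 423 and 442 CPM and to 670, 265 and 492 CPM. Knockout replicates 1 and 2, the livers with most globin (157 and 177 CPM), thus held the highest and the lowest endothelial sums of all livers. Of 14 tested Kupffer cell genes 0 were called (median 0.12, 12 above 0), and of 14 endothelial genes 0 (median -0.08, 6 above 0), with 0 of either list at an unadjusted p below 0.05. Hepatocyte markers, led by Alb, Apoa1, Ahsg and Ttr, had a median of 0.10 over 16 tested genes with 0 called and 1 at an unadjusted p below 0.05.

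**Figure D4:**
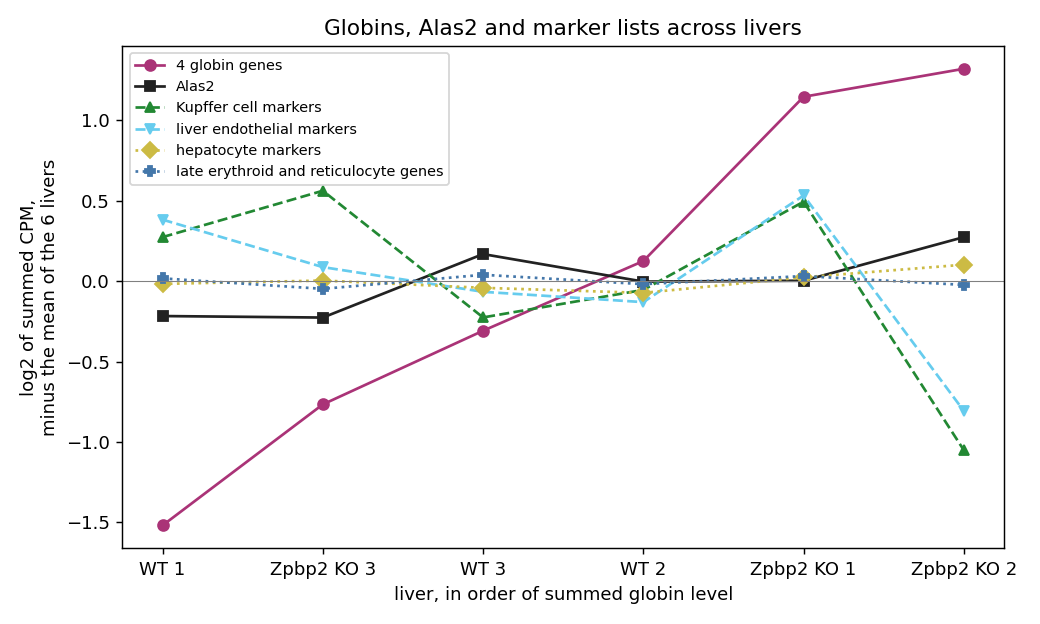
Log2 of the summed CPM of the 4 globin genes, of Alas2 and of marker lists in each liver, minus the mean over the 6 livers, with livers ordered by their summed globin level. The globin line climbs from WT replicate 1 (24.8 CPM) to Zpbp2 KO replicate 2 (177 CPM), the Alas2, hepatocyte and late erythroid lines stay near 0, and the Kupffer cell and endothelial lines drop in Zpbp2 KO replicate 2.

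The genes whose pattern over the 6 livers was most like that of the 5 tested genes were found by the root mean square difference of centred log2 CPM, among 11699 genes on none of the lists. Among the nearest were Gm16348 (0.29), Cela1, which encodes an elastase (0.30), Gm12718 (0.31) and Nat1, an N-acetyltransferase (0.35). The members of the group lay at 0.17 to 0.23 for the globins and at 0.69 for Alas2, so these genes were nearer to the common profile than Alas2 was. Cela1 stood at 11.3, 27.0 and 22.3 CPM in WT livers and 60.5, 36.0 and 16.9 CPM in knockouts. It shared the globins' lowest liver, WT replicate 1, but its highest was knockout replicate 1.

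Measured against the 4 globins alone, a reference chosen after the values were seen, Gm16348 (0.33) and the nuclear long noncoding RNA Neat1 (0.33) were nearest. Neat1 stood at 58.1, 222 and 186 CPM in WT livers and 341, 554 and 197 CPM in knockouts, with the same highest and lowest livers as the globins. With 6 livers and 11699 genes some profiles will be close without any relation, and these values describe the libraries only.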

How the data were processed

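Poly(A)-selected RNA of 6 livers was sequenced in pairs of 100 cycles with a directional kit, per the labels' protocols. The deposited table holds raw counts per Ensembl gene ID and library, and all 6 columns were matched by title. STAR, Picard, HTSeq and mm9 are named per the submitters' processing notes. Settings, gene annotation and strandedness of that counting were not given in the sources used here. Symbols, transcripts and lengths came from GENCODE M21 (32919 of 37991 IDs matched), with the longest protein-coding transcript per gene. Because the counts were made on mm9, GRCm38 coordinates are given for the printed promoters alone.

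The test was edgeR 4.0.16 (R 4.3.3): filterByExpr with a minimum count of 10, TMM, the quasi-likelihood F-test, no covariate, Benjamini-Hochberg adjustment over 14686 genes and a threshold of 0.05. Ratios were compared with two-sided exact permutation tests over livers. Alternatives were DESeq2 1.42.0, limma-voom (limma 3.58.1), other scalings and filters, a robust fit, length and GC offsets (96.99% of genes with a length), the replicate block and each library left out. The tests were checked on simulated data.

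The 6 genes and all lists were chosen with earlier results of these data known. From each list the text names the called genes or, with none called, up to 4 tested genes of highest mean CPM and defining markers at 0, and for likeness the 5 nearest genes, among those whose mean log2 CPM was 0 or above. Other genes are said to be picked after their values were seen. Some genes that the rule takes are not reported here. Replicates of a group differed by far more than sampling noise (a chi-square per gene of 18.7 to 94.9 for each pair), so no library was taken as a copy of another.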

Additional observations from a re-analysis of the deposited data

How the results depend on the processing

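None of the tested genes of the group was called under any of the 16 alternatives (10 other settings and 6 with a library left out). Their median log2 fold change ran from 0.97 to 1.22 under the other settings and from 0.69 to 1.46 with a library left out, always above 0; Slc4a1 joined the median with no filter and in 4 of the latter fits. Alas2 changed sign, from 0.040 to -0.034 with length and GC offsets, and ran from -0.099 (without Zpbp2 KO replicate 2) to 0.15 (without Zpbp2 KO replicate 3) with a library left out, at -0.055 without WT replicate 1; the cause was not tested. Over all genes 2 were called, 76 by DESeq2, 12 with no filter on low counts, and 2 to 4 with a library left out, the 4 being without Zpbp2 KO replicate 2; the cause was not tested. Alas1 was called by DESeq2 (1.37) and by none of the other fits run. Length and GC offsets lowered the globin values most among settings with all livers, to 0.97 for Hba-a1, 1.04 for Hba-a2, 1.05 for Hbb-bs and 0.66 for Hbb-bt. Same-numbered libraries did not deviate together throughout (correlations of 0.14, 0.20 and -0.24 for numbers 1 to 3). These few values showed no pairing of livers by number and cannot exclude it. With the replicate block the median was 1.12 and 2 genes were called. Counts of 2 to 13 for Slc4a1 leave ratios uncertain several-fold.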
